A study of Homo sapiens with 9 samples.

Results

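The 10 genes described here encode the hypoxia-inducible factor (HIF) subunits and the proteins that tie them to oxygen. They comprise the α subunits HIF1A, EPAS1 and HIF3A, the partner subunits ARNT and ARNT2, the prolyl hydroxylases EGLN1, EGLN2 and EGLN3, the asparaginyl hydroxylase HIF1AN, and VHL. They were selected by gene symbol alone, as 10 of the 60683 genes in the count table, and each matched 1 Ensembl identifier. The 9 RNA libraries came from 6-well cultures of Hep3B, a human hepatocellular carcinoma line, in 3 groups of 3 biological replicates. Cultures in 20% O2 received the DMSO vehicle, those in 1% O2 received either DMSO or the compound 32-134D, and each treatment lasted 24 hours. All groups are cultures of this single line, kept in DMEM/F12 medium per the labels, whereas the study's methods name high-glucose DMEM. The labels give no dose of the compound. No library combined 32-134D with 20% O2, so an effect of the compound outside hypoxia was not measured.

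HIF is a heterodimer of an oxygen-regulated α subunit and a constitutive partner, and it activates transcription from hypoxia-response elements. In the presence of oxygen the EGLN enzymes hydroxylate prolines of the α subunit, VHL then recruits a ubiquitin ligase to it, and HIF1AN hydroxylates an asparagine that blocks coactivator binding. Regulation of the α subunits by oxygen is thus mainly post-translational, whereas EGLN1 and EGLN3 are known HIF target genes that form a negative feedback loop. Only transcript levels were measured here, so nothing below concerns protein amount, hydroxylation or HIF activity.

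Promoter windows were examined because the core of the hypoxia-response element can be recognized by its letters. RefSeq promoters on GRCh38.p14, each running from 250 bases before to 50 bases after a transcription start, were found for 8 of the 10 genes, in 12 windows, and VHL and ARNT2 had no entry. ACGTG, searched on both strands, was present in the windows of EGLN1 and EGLN2, against 21.4% of 35116 promoters. GCGTG, searched the same way, was present for HIF1A, EPAS1 and HIF3A, against 36.5% of promoters, and 48.4% of promoters held either word. The windows of ARNT, HIF1AN and EGLN3 held neither, which says only that these letters are not in these windows. The 30 bases around the motif are shown for the 2 hydroxylase genes and the 2 abundant α subunits, 5′ to 3′ on the coding strand, with the motif in capitals.
EGLN1, chr1:231422288-231422317, minus strand: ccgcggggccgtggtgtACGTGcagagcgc
EGLN2, chr19:40799130-40799159, plus strand: gcggggcgcggtCACGTGcccaccgggcga
HIF1A, chr14:61695297-61695326, plus strand: tggctgagagcgGCGTGggctggggtgggg
EPAS1, chr2:46297278-46297307, plus strand: gggcctgccggcGCGTGcccgcccacacac
The EGLN1 motif began 13 bases before the RefSeq start, within an exon annotated in GENCODE. In EGLN2 the capitals mark ACGTG on both strands, overlapping in a palindrome, with the motifs 48 and 49 bases before the start. HIF3A held GCGTG at 3 places, 193, 74 and 52 bases before its start. A match is a description of the sequence and is not evidence of binding.

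Total counts ranged from 6013980 in replicate 2 of vehicle at 20% O2 to 40549700 in replicate 1 of vehicle at 1% O2. Levels are given as CPM, counts per 1000000 of the library total after TMM scaling, and differences as log2 fold changes from 1 edgeR fit of the 9 libraries. A gene was called when its Benjamini-Hochberg FDR over the 22672 tested genes was below 0.05 and its fold change exceeded 1.5. All 10 genes passed the filter of 10 summed counts. The labelled cell type was checked with 9 hepatocyte markers, all detected, whose summed level was 18309 to 19763 CPM in vehicle at 20% O2, 13416 to 16747 CPM in vehicle at 1% O2 and 11741 to 18088 CPM with 32-134D. Of 12 markers of other cell types, CD3E, VWF and ACTA2 had 0 counts, and PTPRC, CDH5 and COL3A1 had at most 7 over all libraries. The summed level of these 12 was 397 to 462, 435 to 527 and 258 to 377 CPM in the same order of groups, and most of it was the biliary keratin KRT19, at 341 to 402, 401 to 491 and 182 to 321 CPM. KRT19 was called lower with 32-134D (log2 fold change -0.73), whereas PDGFRB (-1.44 and 1.13), COL1A1 (-0.85 and 0.94) and PECAM1 (-1.88 and 1.93) were called lower in hypoxia and higher with 32-134D. The other biliary keratin, KRT7, went the other way from KRT19 with 32-134D, at 0.57 (edgeR FDR 0.0167), without a call. It stayed without a call in 6 of 18 alternatives. Among the hepatocyte markers AFP (-0.69) and APOB (-3.47) were called lower in hypoxia, and APOB was higher (3.12) and TTR (-0.92), FGB (-0.98) and TF (-0.80) lower with 32-134D. The calls of TTR, FGB and TF were kept in 10, 8 and 14 of 18 alternatives, and each was lost without replicate 3 of 32-134D. So were the calls of KRT19 and COL1A1 with 32-134D. Replicate 3 of 32-134D stood apart in these markers, with 5948 CPM of ALB against 9338 and 9061 CPM in replicates 1 and 2, 9.79 CPM of TTR against 37.9 and 34.5 CPM, and 6.86 CPM of FGB against 33.5 and 33.1 CPM. The part of these differences in the results was not tested, beyond the fits without replicate 3 of 32-134D given below. The 5 HIF target genes CA9, EPO, VEGFA, ANGPTL4 and NDRG1 were all called higher in hypoxia, with a median log2 fold change of 3.82. All 5 were called lower with 32-134D, with a median of -3.35. Of all tested genes 19.5% were called higher in hypoxia and 13.7% lower with 32-134D. Against vehicle at 20% O2, 4 of the 5 were still called higher with 32-134D, and the median of the 5 was 0.69. EPO was not called there (0.47, edgeR FDR 0.397). The calls of VEGFA and NDRG1 were kept in 16 and 17 of 18 alternatives. In that comparison 3.52% of tested genes were called in either direction. Since CPM are shares of a library, fewer cells expressing a gene and less of its RNA per cell cannot be told apart.

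Hypoxia changed 4 of the 10 genes past both thresholds, which lay close to the 39.7% of all tested genes that were called. EGLN1 and EGLN3 rose, and EGLN2 and HIF3A fell. The count was 2 without replicate 3 of vehicle at 1% O2, when the calls of EGLN3 and HIF3A were lost. With 32-134D against vehicle at 1% O2, 3 of the 10 were called, against 29.9% of tested genes: EGLN1 and EGLN3 fell, and EGLN2 rose. Between 32-134D at 1% O2 and vehicle at 20% O2, EGLN1 alone was called and was higher, against 3.52% of tested genes, and without replicate 2 of 32-134D HIF3A was also called, as lower. The median log2 fold change of the 10 genes was 0.20 in hypoxia, -0.04 with 32-134D and 0.06 against vehicle at 20% O2, and that of all tested genes was 0.00, -0.01 and 0.00. Each pair of these comparisons shares 1 group of libraries, so their signs are not independent of each other.

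**Figure D1:**
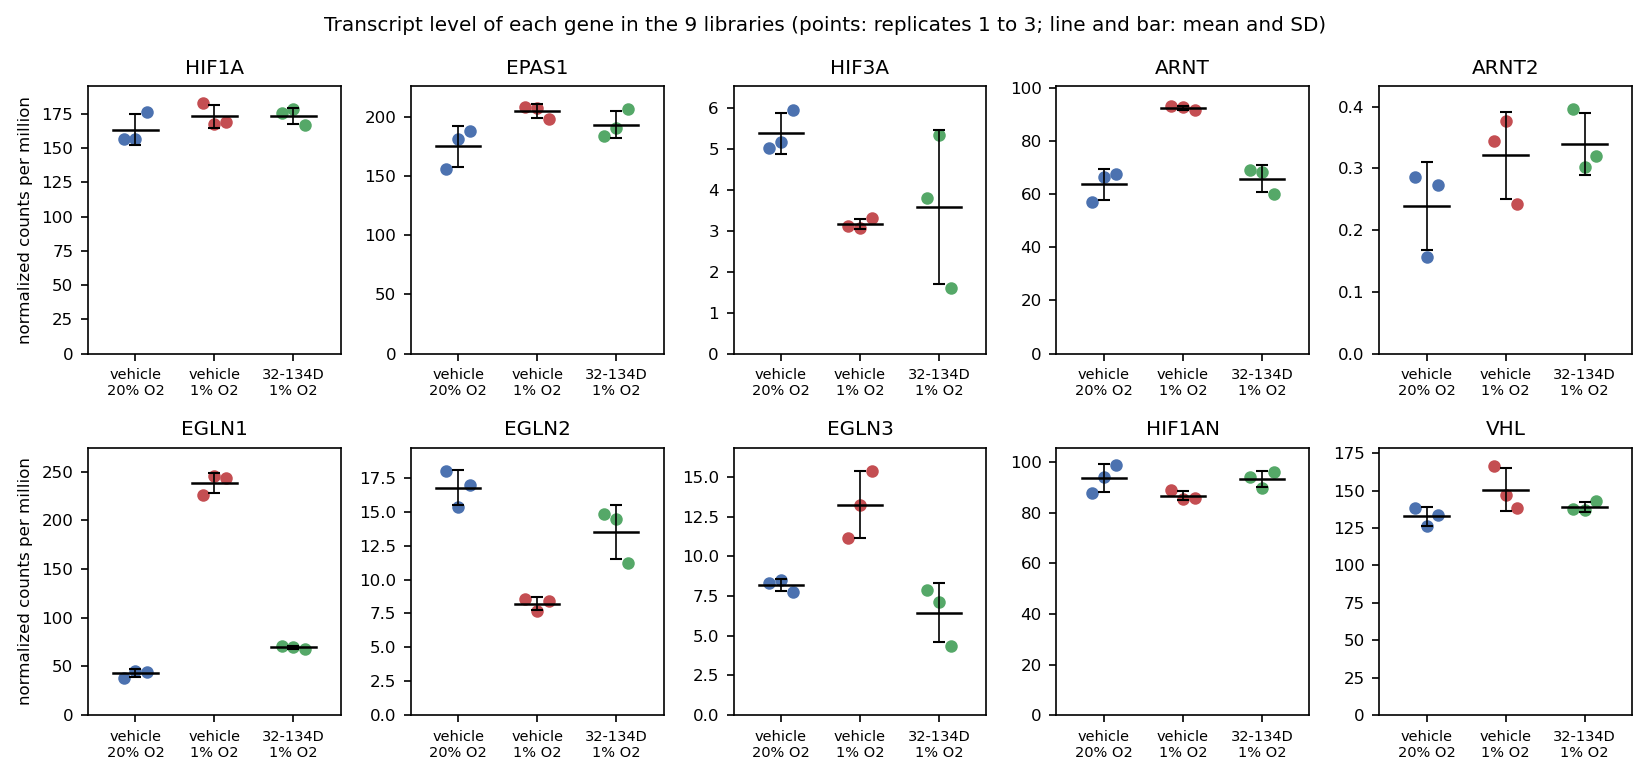
Normalized CPM (vertical axis, starting at 0, with its own scale for each gene) in vehicle at 20% O2, vehicle at 1% O2 and 32-134D at 1% O2; points are replicates 1 to 3 from left to right, and lines and bars are the mean and SD. EGLN1 was 226 to 245 in vehicle at 1% O2 and at most 70.4 in the other groups, whereas HIF1A lay between 157 and 183 in all 9 libraries.

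EGLN1 (ENSG00000135766, chromosome 1, 231363751 to 231425044 on the minus strand of GRCh38) encodes PHD2, the main hydroxylase of HIF-1α in most cells. Its level was 37.9, 45.5 and 44.5 CPM in replicates 1 to 3 of vehicle at 20% O2, 226, 245 and 243 CPM in vehicle at 1% O2, and 70.4, 69.9 and 68.0 CPM with 32-134D. The 3 groups did not overlap, and the spread within the compound group was the smallest, with an SD of 1.23 CPM. The level rose 5.60-fold in hypoxia, a log2 fold change of 2.48 with a standard error of 0.08 and an edgeR FDR of 1.2e-11. With 32-134D it was 3.43-fold lower than in vehicle at 1% O2, a log2 fold change of -1.78 (standard error 0.08, edgeR FDR 6.11e-10). It was still 1.63-fold above vehicle at 20% O2, a log2 fold change of 0.71 with a 95% interval of 0.54 to 0.88 and an edgeR FDR of 5.4e-05. Over the 18 alternatives these log2 fold changes ran from 2.27 to 2.52, from -1.81 to -1.59 and from 0.63 to 0.76, and each kept its call.

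EGLN2 (ENSG00000269858, chromosome 19, 40798996 to 40808433) encodes PHD1, a mainly nuclear member of the family. It had the opposite sign to EGLN1 in each of the 3 comparisons. Its level was 18, 15.4 and 17.0 CPM in vehicle at 20% O2, 8.56, 7.68 and 8.43 CPM in vehicle at 1% O2, and 14.9, 14.4 and 11.3 CPM with 32-134D. No library at 1% O2 with vehicle reached the lowest library of either other group. The level fell 2.05-fold in hypoxia (log2 fold change -1.04, standard error 0.13, edgeR FDR 6.26e-06) and was 1.64-fold higher with 32-134D (log2 fold change 0.72, standard error 0.12, edgeR FDR 0.000218). Against vehicle at 20% O2 the compound libraries were lower without overlap, but the log2 fold change of -0.32 did not pass the test (95% interval -0.58 to -0.05, edgeR FDR 0.126). The overlapping readthrough gene RAB4B-EGLN2 shares 2012 exon bases with EGLN2 on the same strand, leaving 69.4% of the exon length of EGLN2 unshared with any gene, and reads in shared bases could have gone uncounted. RAB4B-EGLN2 itself had only 18 counts in all, 0 to 6 per library. RAB4B, the upstream gene of that readthrough, had 156 counts in all, and its log2 fold change was -1.44 in hypoxia (edgeR FDR 0.00535) and 0.98 with 32-134D (edgeR FDR 0.0409). The call with 32-134D was lost in 7 of the 17 alternatives that gave a value.

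EGLN3 (ENSG00000129521, chromosome 14, 33924231 to 34462774 on the minus strand) encodes PHD3, the member best known as strongly induced by hypoxia in many cell types. In Hep3B cells it was a low-abundance transcript with a modest change. Its level was 8.32, 8.48 and 7.76 CPM in vehicle at 20% O2, 11.2, 13.2 and 15.3 CPM in vehicle at 1% O2, and 7.86, 7.14 and 4.34 CPM with 32-134D. Vehicle at 1% O2 stood above both other groups without overlap, and those 2 groups overlapped each other. The rise in hypoxia was 1.63-fold, a log2 fold change of 0.70 (95% interval 0.30 to 1.11, edgeR FDR 0.00561). This call was lost with total library size (log2 fold change 0.49), with upper quartile scaling (0.51), after thinning to the smallest library (0.51, edgeR FDR 0.0557) and without replicate 3 of vehicle at 1% O2 (0.57). With 32-134D the level was 2.03-fold lower, a log2 fold change of -1.02 (95% interval -1.41 to -0.63, edgeR FDR 0.000287), and this call was kept under all 18 alternatives. Against vehicle at 20% O2 the log2 fold change was -0.32 (95% interval -0.73 to 0.10, edgeR FDR 0.352). The annotated span of EGLN3 holds SPTSSA on the same strand without shared exon bases, and the antisense gene EGLN3-AS1 had 8 counts in all libraries. SPTSSA had 7152 counts in all. It was called higher in hypoxia (log2 fold change 0.64, edgeR FDR 0.000338) and lower with 32-134D (-0.60, edgeR FDR 0.000615).

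The 3 hydroxylases thus differed in size and direction. A length-scaled level, CPM per kilobase of annotated exon, was used to compare them within each library. EGLN1 made up 57.5, 64.2 and 62.7% of the summed level of the 3 genes in vehicle at 20% O2, 91.7, 91.9 and 90.9% in vehicle at 1% O2, and 74.4, 75.2 and 80.3% with 32-134D. The mean shares were 61.5% ± 3.56, 91.5% ± 0.56 and 76.7% ± 3.17 (SD, n = 3). The groups did not overlap in any of the 3 pairs, for which the exact permutation test, two-sided, gave p = 0.1, the smallest p that 3 against 3 allows. EGLN2 went from 26.9% ± 3.09 to 3.50% ± 0.33 in hypoxia and was 16.4% ± 1.51 with 32-134D (SD, n = 3). EGLN3 was 11.7% ± 0.83, 5.01% ± 0.60 and 6.95% ± 1.67 (SD, n = 3), so that its share was lower in hypoxia although its level was higher. The shares with 32-134D and vehicle at 1% O2 overlapped for EGLN3 (exact permutation p = 0.2). These shares depend on the length assigned to each gene. EGLN3 has 7359 bases of merged exon but a longest transcript of 2849 bases, and with the longest transcripts the EGLN1 shares were 45.5%, 83.2% and 63.3%.

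**Figure D2:**
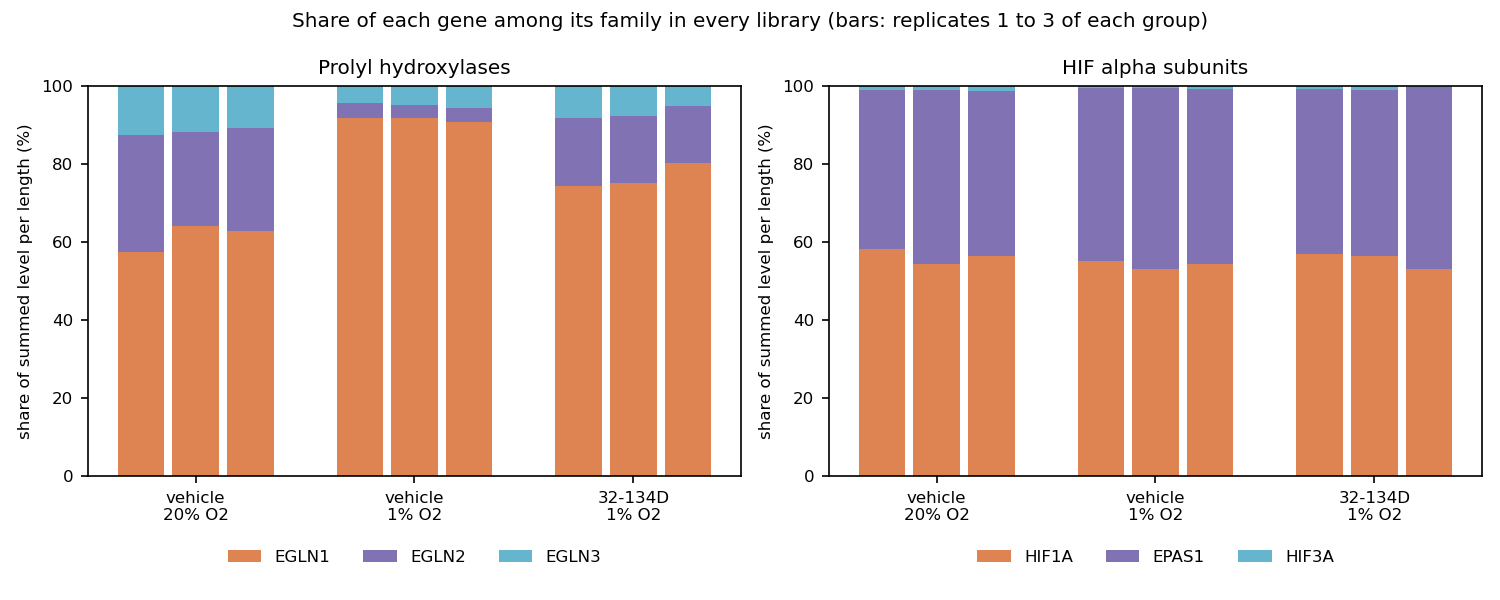
Share of each gene (vertical axis, percent of the summed level per length) in each of the 9 libraries, with 3 bars per group for replicates 1 to 3; the left panel stacks EGLN1, EGLN2 and EGLN3, the right panel HIF1A, EPAS1 and HIF3A. EGLN1 filled 90.9 to 91.9% of the left bars in vehicle at 1% O2 and 57.5 to 64.2% in vehicle at 20% O2, while HIF1A averaged 54.1 to 56.3% in the 3 groups.

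The summed length-scaled level of the 3 hydroxylases was 9.54 ± 0.39 CPM per kilobase in vehicle at 20% O2, 35.8 ± 1.64 in vehicle at 1% O2 and 12.5 ± 0.72 with 32-134D (SD, n = 3). The sum was 3.76 times as high in hypoxia, 2.87 times as low with 32-134D as in vehicle at 1% O2, and 1.31 times as high with 32-134D as in vehicle at 20% O2. No pair of groups overlapped (exact permutation p = 0.1 for each). The summed level of the 3 α subunits was 56.4 ± 4.18, 62.1 ± 2.11 and 60.7 ± 0.87 CPM per kilobase (SD, n = 3), and these groups overlapped, with exact permutation p = 0.2 in hypoxia, 0.4 with 32-134D and 0.2 against vehicle at 20% O2. Expressed as a ratio, there were 17.0 ± 0.77 units of hydroxylase transcript per 100 of α subunit transcript in vehicle at 20% O2, 57.8 ± 4.50 in vehicle at 1% O2 and 20.6 ± 1.34 with 32-134D (SD, n = 3). The ratio was higher in every library of vehicle at 1% O2 than in any other library, and the lowest compound library, at 19.2, was above the highest library at 20% O2, at 17.5. Merged exon lengths were used for these sums and ratios. They exceed the longest transcripts, at 6577 against 3894 bases for EGLN2 and 7359 against 2849 for EGLN3. The narrow separation of compound and 20% O2 libraries may not hold with other lengths, which were not tried for the ratio.

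HIF1A (ENSG00000100644, chromosome 14, 61695513 to 61748259) encodes HIF-1α. Its level was 157, 157 and 176 CPM in vehicle at 20% O2, 183, 168 and 169 CPM in vehicle at 1% O2, and 175, 178 and 167 CPM with 32-134D. The 3 groups overlapped throughout, at means of 163 ± 11.3, 173 ± 8.30 and 173 ± 5.99 CPM (SD, n = 3). The log2 fold change was 0.08 in hypoxia (95% interval -0.07 to 0.24, edgeR FDR 0.356) and 0.00 with 32-134D (95% interval -0.15 to 0.16, edgeR FDR 0.988). Neither interval reached a change of 1.5-fold, a log2 fold change of 0.58, in either direction. The sign in hypoxia depends on the scaling, since total library size gave -0.13. The antisense gene HIF1A-AS1, which shares 117 exon bases with HIF1A, had 50 counts in all libraries, and HIF1A-AS3 had 1.

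EPAS1 (ENSG00000116016, chromosome 2, 46293667 to 46386703) encodes HIF-2α, the subunit that controls erythropoietin in liver-derived cells. Its level was 156, 182 and 188 CPM in vehicle at 20% O2, 209, 208 and 199 CPM in vehicle at 1% O2, and 184, 191 and 207 CPM with 32-134D. The libraries of vehicle at 1% O2 were all above those at 20% O2, and the compound libraries overlapped both groups. The log2 fold change in hypoxia was 0.23, or 1.17-fold (95% interval 0.05 to 0.40, edgeR FDR 0.0274), under the fold threshold, and with total library size it was 0.01 (edgeR FDR 0.908). DESeq2 gave 0.18 with an FDR of 0.0868. Over the 18 alternatives the FDR ran from 0.00608 to 0.908, so this small rise passed 0.05 under only some of them. With 32-134D the log2 fold change was -0.08 (95% interval -0.25 to 0.09, edgeR FDR 0.430), and it was 0.10 with total library size. On the length scale HIF1A made up 56.3% ± 1.88, 54.1% ± 1.02 and 55.5% ± 2.07 of the α subunit transcripts (SD, n = 3), and EPAS1 made up 42.6%, 45.3% and 43.8%. Without length correction the HIF1A shares were 47.5%, 45.4% and 46.8%, so that the order of these genes depends on the lengths.

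HIF3A (ENSG00000124440, chromosome 19, 46297046 to 46343433) encodes HIF-3α, whose short isoforms can antagonize the other α subunits. It was the least abundant α subunit, with 33 to 196 counts per library. Its level was 5.02, 5.18 and 5.96 CPM in vehicle at 20% O2, 3.13, 3.06 and 3.32 CPM in vehicle at 1% O2, and 3.80, 5.35 and 1.60 CPM with 32-134D. The vehicle groups were tight and did not overlap, while of the 3 compound libraries 1 lay below both groups, 1 between them and 1 within the range at 20% O2. The level fell 1.72-fold in hypoxia, a log2 fold change of -0.78 (95% interval -1.41 to -0.15, edgeR FDR 0.0370). That call was lost in each of the 6 fits that left out a vehicle library, with log2 fold changes from -0.89 to -0.69. With 32-134D the log2 fold change was 0.20 (95% interval -0.41 to 0.82, edgeR FDR 0.601), and without replicate 2 of 32-134D it was -0.18. Gene-level counts do not separate the isoforms of HIF3A.

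ARNT (ENSG00000143437, chromosome 1, 150809705 to 150876768 on the minus strand) encodes HIF-1β, the shared partner of the α subunits. Its level was 57.0, 66.3 and 67.5 CPM in vehicle at 20% O2, 93.0, 92.6 and 91.5 CPM in vehicle at 1% O2, and 68.9, 68.4 and 60.0 CPM with 32-134D. Vehicle at 1% O2 stood apart from both other groups, with an SD of only 0.76 CPM, and the other 2 groups overlapped. The rise in hypoxia was 1.45-fold, a log2 fold change of 0.54 (95% interval 0.36 to 0.72, edgeR FDR 5.93e-05), just under the fold threshold. With 32-134D the level was 1.40-fold lower, a log2 fold change of -0.49 (95% interval -0.66 to -0.31, edgeR FDR 0.000164), and the log2 fold change against vehicle at 20% O2 was 0.05 (95% interval -0.13 to 0.23, edgeR FDR 0.779). Under the 18 alternatives the log2 fold change stayed between 0.33 and 0.58 in hypoxia and between -0.52 and -0.30 with 32-134D, always with an FDR below 0.05. Among the 5 HIF subunits, ARNT was the only gene with an FDR below 0.05 both in hypoxia and with 32-134D.

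ARNT2 (ENSG00000172379, chromosome 15, 80404350 to 80597937) encodes a partner subunit found mainly in neural tissue. It had 1 to 14 counts per library and 72 in all, and its mean level was 0.239 to 0.340 CPM in the 3 groups. The log2 fold change was 0.29 in hypoxia with a 95% interval of -0.70 to 1.28 (edgeR FDR 0.639), and 0.10 with 32-134D with an interval of -0.75 to 0.95 (edgeR FDR 0.856). A change of 1.5-fold was not detectable at this depth. The partner subunit transcripts in these cells were therefore almost entirely those of ARNT.

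HIF1AN (ENSG00000166135, chromosome 10, 100529072 to 100559998) encodes FIH, the asparaginyl hydroxylase. Its level was 88.0, 94.1 and 99.0 CPM in vehicle at 20% O2, 88.9, 85.4 and 86.1 CPM in vehicle at 1% O2, and 94.4, 89.8 and 96.1 CPM with 32-134D. The libraries with 32-134D were slightly above those of vehicle at 1% O2 without overlap, and the vehicle groups overlapped. The log2 fold change was -0.11 in hypoxia (95% interval -0.26 to 0.04, edgeR FDR 0.201) and 0.11 with 32-134D (95% interval -0.04 to 0.25, edgeR FDR 0.234). With total library size these became -0.32 (edgeR FDR 0.00129) and 0.29 (edgeR FDR 0.00326), both under the fold threshold. HIF1AN shares 325 exon bases with NDUFB8 on the opposite strand, a gene with 84 to 641 counts per library, and the strand setting of the counting is not stated.

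VHL (ENSG00000134086, chromosome 3, 10141008 to 10152220) encodes the substrate receptor of the ligase that binds hydroxylated α subunits. Its level was 139, 126 and 134 CPM in vehicle at 20% O2, 167, 147 and 138 CPM in vehicle at 1% O2, and 138, 137 and 143 CPM with 32-134D. All 3 groups overlapped. The log2 fold change was 0.18 in hypoxia (95% interval 0.01 to 0.35, edgeR FDR 0.0643) and -0.12 with 32-134D (95% interval -0.28 to 0.05, edgeR FDR 0.242), and both changed sign with total library size, to -0.03 and 0.07. The processed copies VHLL, HIF1AP1, EGLN1P1 and EGLN3P1 had 7, 2, 0 and 0 counts in all libraries.

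**Figure D3:**
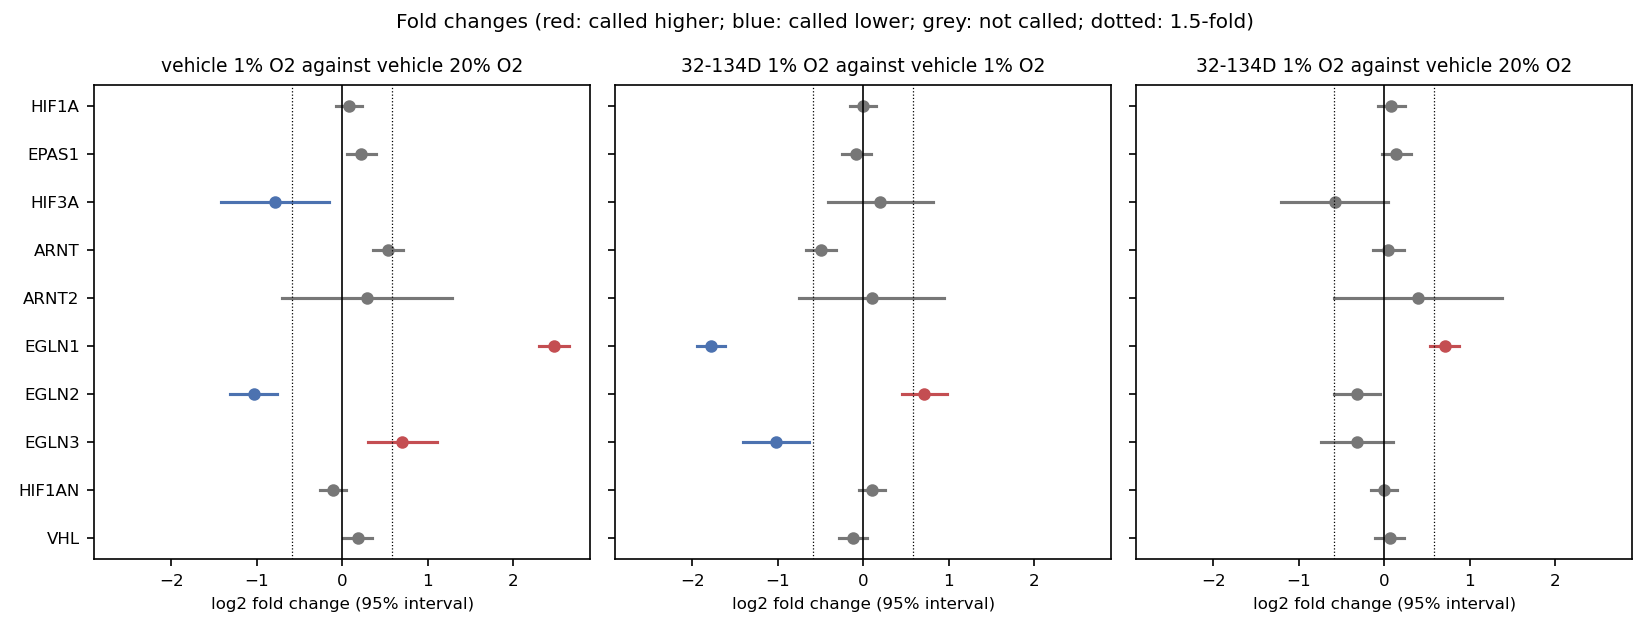
Log2 fold change (horizontal axis) of the 10 genes in 3 comparisons, with 95% intervals from edgeR; red marks genes called higher, blue genes called lower, grey genes not called, and dotted lines a 1.5-fold change. EGLN1 lay at 2.48 in hypoxia, -1.78 with 32-134D and 0.71 against vehicle at 20% O2, while the intervals of HIF1A, EPAS1, HIF1AN and VHL stayed inside the dotted lines.

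In number of genes rather than size, the libraries of the compared groups did not overlap for 6 of the 10 genes in hypoxia, 5 with 32-134D and 3 against vehicle at 20% O2 (EGLN1, EGLN2 and ARNT2), where 60.5%, 56.1% and 29.8% of all tested genes did not overlap. An FDR below 0.05 without a fold threshold was reached by 6, 4 and 1 of the 10, against 53.5%, 47.5% and 10.3% of tested genes. Each of these counts lay near the share over all tested genes.

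In the order of length-scaled levels, taken on merged exon length, EGLN1 changed its place most between conditions. Places and overlaps between genes depend on that length. The longest transcript has 3956 bases against 5151 merged for HIF1A, but 7097 against 7265 for EGLN1. The order with longest transcripts was not tested. In vehicle at 20% O2, HIF1A (31.7 CPM per kilobase) and VHL (31.5) were highest and overlapped each other, followed without overlap between neighbours by EPAS1 (24.0), ARNT (9.76), HIF1AN (6.72), EGLN1 (5.87), EGLN2 (2.55), EGLN3 (1.11), HIF3A (0.644) and ARNT2 (0.0309). EGLN1 was at the 70.6th percentile of tested genes there. In vehicle at 1% O2 it reached 32.8 CPM per kilobase, the 92.4th percentile, where it overlapped HIF1A (33.6), which overlapped VHL (35.8). EGLN3 (1.80) then stood above EGLN2 (1.25) without overlap, the reverse of their order at 20% O2. With 32-134D, EGLN1 (9.56) overlapped ARNT (10.1), and EGLN2 (2.06) was again above EGLN3 (0.876), which overlapped HIF3A (0.428).

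**Figure D4:**
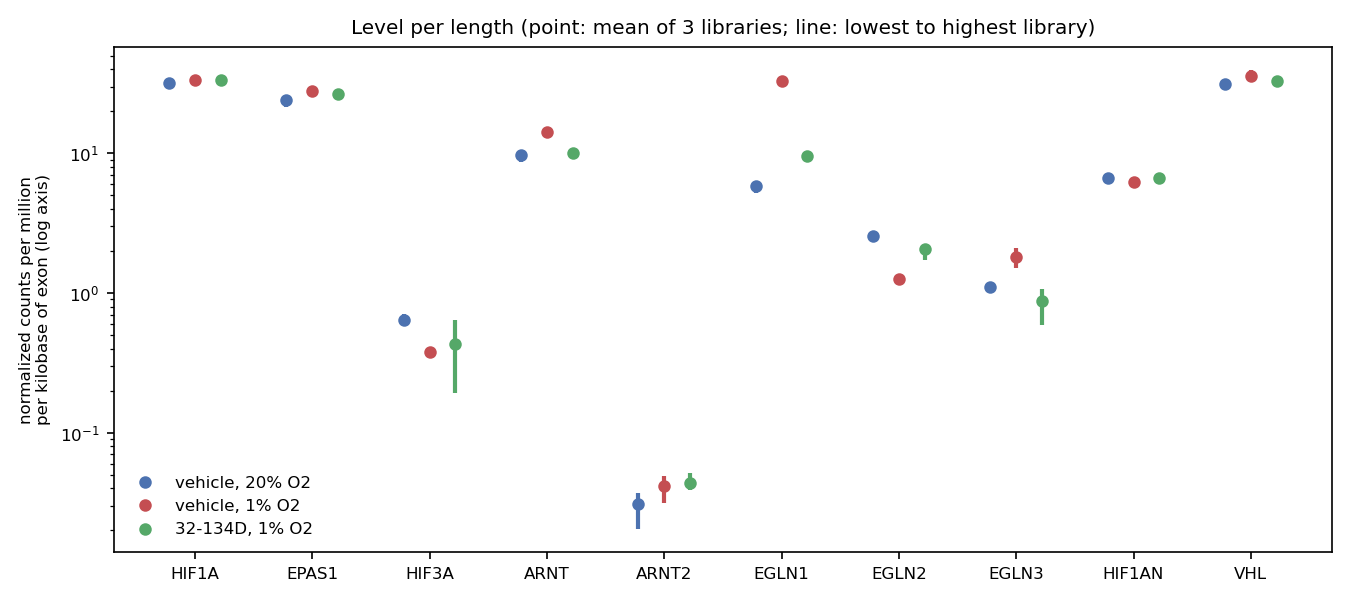
Normalized CPM per kilobase of exon (log axis) for each gene; points are means of 3 libraries and lines run from the lowest to the highest library, in blue for vehicle at 20% O2, red for vehicle at 1% O2 and green for 32-134D at 1% O2. On merged exon length, EGLN1 moved from 5.87 to 32.8, next to HIF1A and VHL, and was 9.56 with 32-134D. ARNT2 was lowest in each group, with no library above 0.0513.

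Replicate 3 of 32-134D had the lowest level of its group for HIF1A, HIF3A, ARNT, EGLN1, EGLN2 and EGLN3, and the highest for EPAS1, HIF1AN and VHL. The same library, whose ALB, TTR and FGB were also low, had 52.4 CPM of AHRR (ENSG00000286169), a repressor of the aryl hydrocarbon receptor, against 4.94 and 5.76 CPM in replicates 1 and 2 of 32-134D and 2.35 to 3.30 CPM in the vehicle libraries. What set this library apart was not tested. Without this library the number of members called stayed at 4, 3 and 1 in the 3 comparisons. With 32-134D, the log2 fold change was then -1.76 for EGLN1 (edgeR FDR 7.6e-17), 0.83 for EGLN2 (edgeR FDR 1.33e-07) and -0.81 for EGLN3 (edgeR FDR 3.76e-06). That of HIF3A became 0.52 with an FDR of 0.00964, under the fold threshold, against 0.20 with all libraries.

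Genes that act on the same pathway were examined as lists written from general knowledge. Of 11 genes for the VHL ubiquitin ligase, its E2 enzymes and opposing deubiquitinases, 5 were higher and 0 lower in hypoxia, with a median log2 fold change of 0.47 beside 0.00 over all genes. Across all tested genes 19.5% were called higher and 20.3% lower in that comparison. The scaffold and adaptor subunits CUL2, ELOB, ELOC and RBX1 were not called, at 0.22 to 0.47. Those that rose were the E2 enzymes UBE2D1 (0.82), UBE2D2 (0.88) and UBE2D3 (0.71) and the deubiquitinases USP28 (1.01) and USP33 (0.60), the last lost in 11 of 18 alternatives. With 32-134D, where 16.2% of tested genes were called higher and 13.7% lower, 2 of the 11 were lower, namely USP28 (log2 fold change -0.89, edgeR FDR 5.64e-06) and UBE2D2 (-0.67, lost in 4 of 18 alternatives), and 0 were higher, with a median of -0.42 beside -0.01 over all genes. Total library size left 3 higher in hypoxia and 1 lower with the compound.

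Among 15 genes listed as oxygen-independent control of the α subunits, 8 were higher and 0 lower in hypoxia, with a median log2 fold change of 0.77. That name is loose for SIAH2 and WSB1, which act on EGLN3 and VHL and so on the oxygen-dependent route. The shares over all tested genes were 19.5% higher and 20.3% lower in hypoxia, and 16.2% and 13.7% with 32-134D. SIAH2, a ubiquitin ligase that degrades EGLN3, went from 30.6, 26.5 and 30.5 CPM in vehicle at 20% O2 to 177, 196 and 185 CPM in vehicle at 1% O2, and was 68.6, 65.2 and 66.1 CPM with 32-134D. Its log2 fold changes were 2.66 in hypoxia (edgeR FDR 5.3e-12), -1.48 with 32-134D (edgeR FDR 2.48e-09) and 1.18 against vehicle at 20% O2 (edgeR FDR 3.46e-07). WSB1, which directs VHL to degradation, rose by 1.84 on the log2 scale, the chaperone HSP90AA1 by 1.21 and the ligase SIAH1 by 1.19. With 32-134D 4 of the 15 were lower, SIAH2, WSB1 (-1.30), SIAH1 (-0.81) and HSP90AA1 (-0.80), and 0 were higher, with a median of -0.38. Under total library size the counts became 7 higher and 2 lower in hypoxia, and 3 higher and 4 lower with 32-134D.

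Of 9 coactivators of HIF and proteins that compete for them, 3 were higher and 1 lower in hypoxia, with a median log2 fold change of 0.02. Of all tested genes 19.5% were called higher and 20.3% lower in hypoxia, and 16.2% and 13.7% with 32-134D. The coactivators EP300 and CREBBP were not called, at -0.40 and -0.24. CITED2, which competes with HIF-1α for EP300 and CREBBP, went from 28.6 to 31.5 CPM at 20% O2 to 242 to 276 CPM in vehicle at 1% O2 and was 44.0 to 49.4 CPM with 32-134D. Its log2 fold change was 3.10 in hypoxia (edgeR FDR 2.26e-12), -2.48 with 32-134D (edgeR FDR 4.69e-11) and 0.62 against vehicle at 20% O2 (edgeR FDR 0.000177), the last lost in 3 of 18 alternatives. Its relative CITED4 went the other way, by -1.80 and 1.55 in the first 2 comparisons, from 26.7 to 35.1 CPM at 20% O2 to 7.98 to 9.06 CPM in vehicle at 1% O2. The pyruvate kinase gene PKM (1.44 and -1.35) and the mediator kinase gene CDK8 (1.37 and -0.95) rose in hypoxia and were lower with 32-134D, where 1 of the 9 was higher, 3 were lower and the median was -0.02. With total library size the counts were 3 higher and 2 lower in hypoxia, and 2 higher and 3 lower with 32-134D.

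Other oxygen-dependent dioxygenases gave 5 higher and 0 lower of 11 in hypoxia, with a median log2 fold change of 0.72. All tested genes gave 19.5% higher and 20.3% lower in hypoxia, and 16.2% and 13.7% with 32-134D. The collagen prolyl hydroxylase P4HA1 went from 18.9, 17.0 and 18.3 CPM at 20% O2 to 312, 357 and 372 CPM in vehicle at 1% O2, and was 50.6, 53.8 and 39.6 CPM with 32-134D. Its log2 fold changes of 4.25, -2.85 and 1.40 in the 3 comparisons (edgeR FDR 3.42e-12, 2.62e-10 and 2.36e-06) were each larger in size than those of EGLN1. P4HA2 (2.72, -1.94 and 0.78) and the lysyl hydroxylase JMJD6 (2.63, -1.40 and 1.22) were called in the same directions, and ADO, the cysteamine dioxygenase, was called higher in hypoxia, at 0.76, and was at -0.54 without a call with 32-134D. With 32-134D 3 of the 11 were lower, 0 were higher and the median was -0.32. Against vehicle at 20% O2, 3 of the 11 were higher, P4HA1, P4HA2 and JMJD6. In that comparison 3.52% of all tested genes were called in either direction. With total library size 3 of the 11 were higher in hypoxia and 3 were lower with 32-134D.

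The other bHLH-PAS proteins, relatives of the HIF subunits, had 11 identifiers tested for 10 genes, as AHRR is listed under 2. In hypoxia 2 were higher and 2 lower, and with 32-134D 4 identifiers of 3 genes were higher and 2 lower, at medians of -0.03 and 0.04. Beside these, 19.5% of tested genes were higher and 20.3% lower in hypoxia, and 16.2% and 13.7% with 32-134D. With total library size the counts were 1 higher and 3 lower in hypoxia, and 5 higher and 2 lower with 32-134D. The clock gene ARNTL rose in hypoxia (log2 fold change 0.77, lost with total library size and with upper quartile scaling) and was lower in the compound libraries (-0.89). The log2 fold changes of its relative NPAS2 were -1.62 and 1.30 in these comparisons. NPAS2 was 46.6 to 50.7 CPM at 20% O2, 15.04 to 17.3 CPM in vehicle at 1% O2 and 37.7 to 40.05 CPM with 32-134D. AHRR was called higher with 32-134D under both identifiers. The log2 fold change for ENSG00000286169 was 3.08 (edgeR FDR 0.00212), and it ran from 1.13 to 3.61 over its 17 alternatives. Its size rests largely on 1 library, as the level was 4.94, 5.76 and 52.4 CPM in replicates 1 to 3 of 32-134D. In vehicle at 1% O2 it was 2.35 to 2.54 CPM. The other identifier lost its call without replicate 3 of 32-134D. NPAS3 had 0 counts in all 3 libraries of vehicle at 1% O2 and at most 13 elsewhere, SIM2 at most 30, and NPAS4 2 in all. Despite these low counts, NPAS3 and SIM2 are among the calls counted above, both in hypoxia and with 32-134D.

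**Figure D5:**
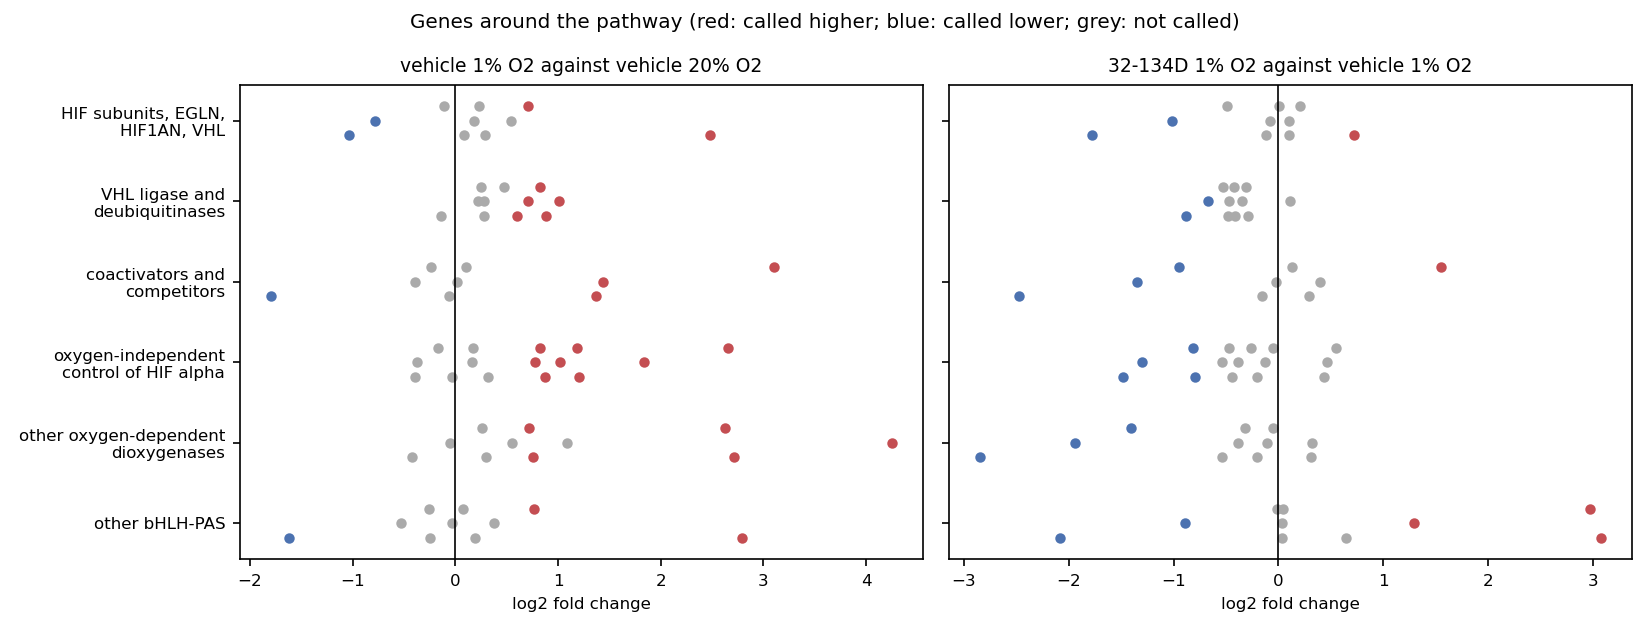
Log2 fold change (horizontal axis) of the 10 genes and of each tested gene in 5 related lists, for hypoxia (left) and 32-134D in hypoxia (right); red marks genes called higher, blue called lower, grey not called, and NPAS3, with 0 counts in vehicle at 1% O2, is not drawn. In hypoxia 8 of 15 genes listed as oxygen-independent control, a name loose for SIAH2 and WSB1, lay to the right as called, beside 19.5% of all tested genes called higher. SIAH2 led them at 2.66, and P4HA1 lay farthest right of the genes drawn, at 4.25.

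The genes with the profile most like that of each of 4 members were found by Pearson's correlation of log2 CPM over the 9 libraries, among 11140 genes with a mean of at least 5 CPM. For EGLN1 they were HK2 (0.999), PTBP1 (0.999) and STBD1 (0.999), with 2102 genes over 0.95. For EGLN3 they were CAVIN2 (0.991), APOC3 (0.988) and TK1 (0.987), with 91 genes over 0.95. For EPAS1 they were ERCC6 (0.993), ABL1 (0.989) and NSD3 (0.984), with 28 genes over 0.95. For HIF1A only CCDC134 (0.973) exceeded 0.95, ahead of GAREM2 (0.923) and XPNPEP3 (0.923). These values describe profiles over 3 conditions, in which libraries of a group share their treatment, and a gene with a large difference between groups matches many others.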

How the data were processed

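RNA-seq was performed by the authors on Hep3B cells after 24 hours in 3 groups of 3 biological replicates. The authors deposited raw read counts per gene, without normalization, made by trimming, alignment with STAR to GRCh38 (Ensembl release 100) and counting with featureCounts; the strand setting and tool versions are not given in the sources used here. The submitters' processing notes also name FastQC, MultiQC and DESeq2. The 9 columns were matched to samples by the names in the labels, and columns of other samples numbered 0. Total counts were 6013980 to 40549700 per library, and chi-square over degrees of freedom was 1.62 to 36.4 between replicates, above counting error, and none was counted as a repeat of another.

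Genes with at least 10 summed counts (22672) were fitted with edgeR 4.0.16 in R 4.3.3, using TMM scaling and the quasi-likelihood test on all 9 libraries, with Benjamini-Hochberg adjustment over all tested genes. The common biological coefficient of variation was 10.5%. Intervals are 95% and cover the spread between the 3 replicates and counting error. Shares were compared with two-sided exact permutation tests over libraries. Gene positions and exon lengths came from GENCODE version 29 on GRCh38, in which 58496 of the 60683 genes were found. Profiles were correlated on log2 CPM with a prior count of 2. The rule for named genes was all 10 members, up to 4 called genes of each list and comparison with the largest change, list genes under the count filter, genes overlapping a member, and the 3 most similar genes of HIF1A, EPAS1, EGLN1 and EGLN3. Subunits and coactivators given as not called, and ADO, UBE2D3 and USP33 where they go past that number, were added after their values were seen. The members and lists were chosen with earlier results of these data known.

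Alternatives were DESeq2 1.42.0, other scalings, other count filters, other fold thresholds, a fit of the compared groups only, thinning, a replicate block, other gene lengths and leaving out each library. On simulated counts of 22148 genes for the hypoxia comparison, 84% of genes changed by 1 on the log2 scale and 98% of those changed by 2 were recovered, and 7.14% of calls were false. Only 100 genes were changed at each size, all well above the count filter, at a level that ARNT2 did not reach. In the data 39.7% of tested genes were called in hypoxia, so these rates are not those of the reported calls.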

Additional observations from a re-analysis of the deposited data

How the results depend on the processing

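Each group had 3 replicates, and ARNT2, HIF3A and EGLN3 had few counts in the smallest library. Without replicate 3 of 32-134D the standard error of the log2 fold change in hypoxia went from 0.30 to 0.16 for HIF3A and from 0.19 to 0.13 for EGLN3. Of 30 log2 fold changes of single genes under their alternatives, 497 values kept sign and call, 10 lost a call, 1 gained a call and 28 changed sign. The number of members called was 2 in hypoxia and 0 against vehicle at 20% O2 with a fold threshold of 2, and was 2 to 4, 3 to 3 and 1 to 2 in the 3 comparisons when single libraries were left out. The 2 in hypoxia came without replicate 3 of vehicle at 1% O2, and the 2 against vehicle at 20% O2 without replicate 2 of 32-134D, when HIF3A was called at -0.97 (edgeR FDR 0.0431). Leaving out a vehicle library removed the HIF3A call in hypoxia, with edgeR FDR from 0.0546 to 0.151.

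Total library size and upper quartile scaling moved the median log2 fold change of all tested genes from 0.00 to -0.21 and -0.19 in hypoxia and from -0.01 to 0.17 and 0.11 with 32-134D. The share of calls that were higher went from 49.0% to 34.5% and 35.7% in hypoxia, from 54.2% to 72.02% and 66.1% with 32-134D and, with upper quartile scaling, from 85.3% to 68.4% against vehicle at 20% O2. With total library size, log2 fold changes that changed sign were, in hypoxia, HIF1A -0.13 and VHL -0.0321, and with 32-134D EPAS1 0.10 and VHL 0.0701. With upper quartile scaling they were HIF1A -0.11 and VHL -0.0137 in hypoxia, EPAS1 0.0401 and VHL 0.0069 with 32-134D, and ARNT -0.0224 and VHL -0.0068 against vehicle at 20% O2. With at least 10 counts in every library, HIF1A was -0.0272 in hypoxia and EPAS1 0.0121 with 32-134D. Thinning gave ARNT2 -0.10, -0.34 and -0.44 in the 3 comparisons. Without a count filter HIF1A was -0.0071 with 32-134D, and HIF1AN against vehicle at 20% O2 was 0.0138, 0.0039 with DESeq2 and 0.0048 with RLE scaling. The cause of these sign changes beyond the shift of the median was not tested. When single libraries were left out, signs changed for HIF1A in hypoxia (-0.00057 to 0.14), for HIF1A (-0.0190 to 0.0610), EPAS1 (-0.13 to 0.0144) and HIF3A (-0.18 to 0.52) with 32-134D, and for ARNT (-0.0197 to 0.11) and HIF1AN (-0.0463 to 0.0512) against vehicle at 20% O2.

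The EGLN1 shares in the 3 groups were 45.5%, 83.2% and 63.3% with longest transcripts, and 54.99%, 90.1% and 71.5% with exon length not shared with another gene, a setting chosen after seeing the data. Leaving out single libraries gave 60.1 to 63.5%, 91.3 to 91.8% and 74.8 to 77.8%. The HIF1A shares were 54.2% and 52.1% in the vehicle groups with longest transcripts, 47.5%, 45.4% and 46.8% without length correction, and 55.4% in vehicle at 1% O2 with unshared exon length, and ran from 55.3 to 57.2%, 53.7 to 54.7% and 54.8 to 56.7% when single libraries were left out.

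Deviations of same-numbered libraries in different groups correlated at -0.03 to 0.01 over all tested genes, so no shared deviation was seen. This cannot show whether same-numbered cultures were handled together, and the main fit used no pairing. With the replicate block the members called stayed at 4, 3 and 1, and 4296 genes were higher and 4375 lower in hypoxia, against 4412 and 4595 without it.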
